A study of Mus musculus with 18 samples.

Results

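The genes described here encode the plasma proteins of blood coagulation, fibrinolysis and complement, with the receptors of the complement fragments C5a and C3a. They were chosen by symbol from a list of 40 genes. All of them were found among the 24346 gene symbols of the deposited tables. The list was drawn up with earlier results of these data known. By role they fall into 10 groups of 2 to 5 genes.

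Coagulation is a cascade of serine proteases and cofactors that ends when thrombin cleaves fibrinogen to fibrin. Plasmin later dissolves the clot, and plasma inhibitors restrain both steps. Complement is a second cascade, in which the classical, lectin and alternative routes meet at C3 and lead to the membrane attack complex. Hepatocytes secrete most of these proteins, several of them as acute-phase proteins under interleukin-6, while macrophages, fibroblasts and epithelia can make some complement proteins locally. In sepsis both cascades are activated, and clotting factors can be consumed.

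The mice were C57BL/6 males of 9 weeks. All had cecal ligation and puncture (CLP), in which the cecum is tied and pierced so that gut bacteria cause peritonitis and sepsis. Control mice did not inhale the gas. H2 mice inhaled 7% hydrogen gas without a break from the end of surgery, and all of them shared a cage in a gas box, so that gas and housing cannot be told apart. Libraries of poly(A) RNA were made from 3 organs, liver, intestine and lung, 24 h after surgery, with n = 3 libraries in each of 6 groups (control liver, H2 liver, control intestine, H2 intestine, control lung and H2 lung), 18 in all. All groups had the CLP surgery, and unoperated or sham mice are not part of these comparisons. The labels do not say which organs came from the same mouse, nor whether the libraries of a group are separate mice, so the p-values measure the spread between these libraries.

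Levels are given as FPKM, which counts fragments per transcript length and library size and allows levels to be compared between genes. The depth implied by the FPKM of genes with 1 fragment ran from 8.67 to 15.86 M fragments per library. A change is the difference of mean log2(FPKM + 1), H2 minus control, with its standard error (SE) from limma, and it understates the change of genes near 0. A gene was tested where its mean over the 6 libraries of the organ was at least 1 FPKM, and was called at an adjusted p under 0.05 over all tested genes. Marker genes matched the labelled organs. Alb was at 9335 FPKM or more in every liver and at 5.95 FPKM or less elsewhere, Vil1 at 332 FPKM or more in every intestine, and Sftpc at 20779 FPKM or more in every lung. Control liver 2 and control lung 3 lay nearer to the H2 libraries of their organ than the other controls did for many of the genes below, and results are given with and without them.

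In the septic control mice, mRNA of the cascades was mostly hepatic. Of the 40 genes, 35 had their highest control mean in the liver, 5 in the lung and 0 in the intestine. A control mean of at least 10 FPKM was reached by 38 genes in the liver, 13 in the lung and 6 in the intestine, and the median gene stood at 119.8, 1.25 and 0.264 FPKM in those organs. In a fit of all 18 libraries, 37 genes were higher and 2 lower in control liver than in control intestine, where 12.6% of all 13362 tested genes were higher and 60.0% lower. Against the lung, 33 were higher and 4 lower in the liver, beside 9.15% and 76.0% of all genes. Between lung and intestine, 20 were higher and 3 lower in the lung, beside 51.3% and 17.6% of all genes. The fit treats the organs as independent, since the labels give no mouse.

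**Figure D1:**
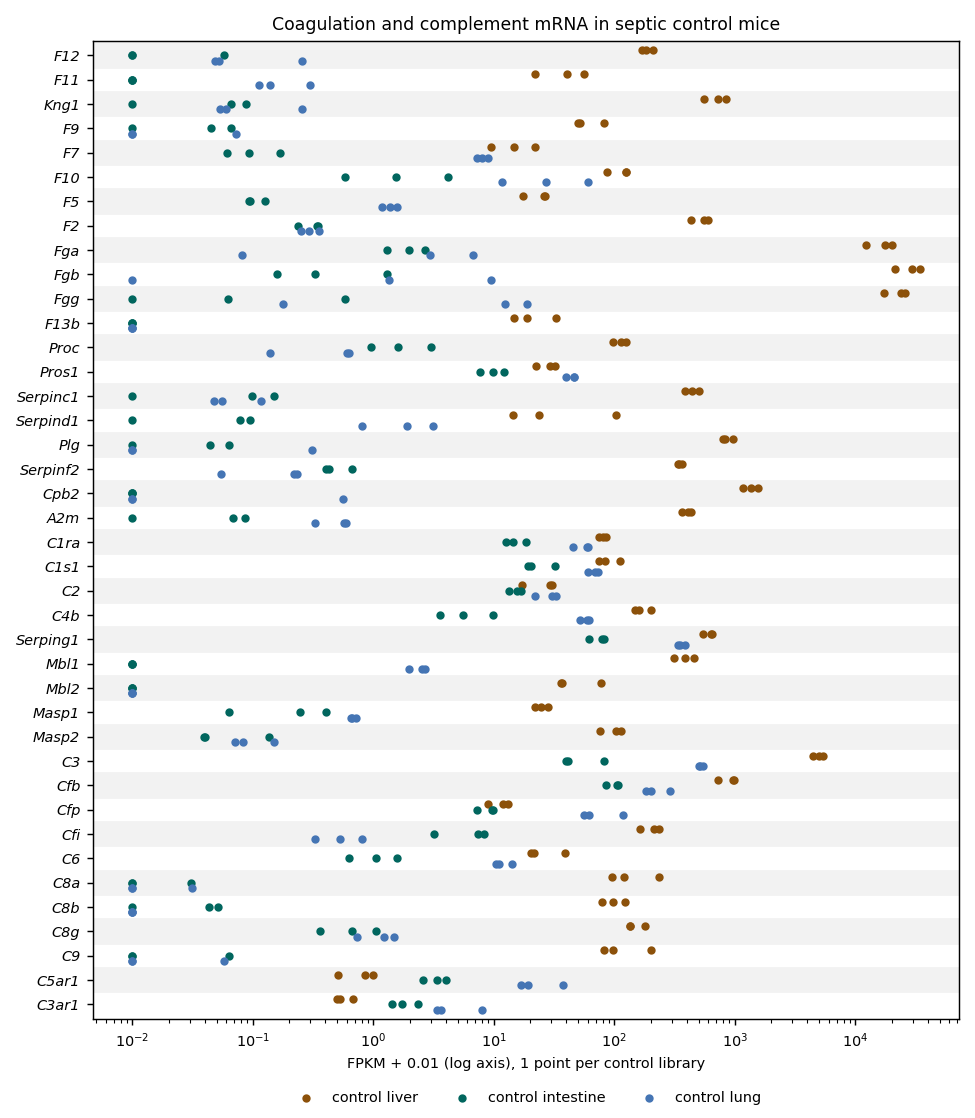
FPKM + 0.01 (log axis) of the 40 genes in the control libraries, with 1 point per library and colours for the 3 organs. Points at the left edge are libraries at 0 FPKM; Fga, Fgb and Fgg in the liver lie farthest to the right, and C5ar1, C3ar1 and Cfp are further right in the lung than in the liver.

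The fibrin group held the most abundant transcripts. Fibrinogen is a dimer of 3 chains encoded side by side on chromosome 3, and the control liver means were 28419 ± 6524 FPKM for Fgb (SD, n = 3), 22474 ± 4447 FPKM for Fgg and 16622 ± 3939.8 FPKM for Fga. The 3 genes made up 9.718, 6.518 and 8.745% of all FPKM in control livers 1, 2 and 3. F13b, the carrier subunit of the factor XIII transglutaminase that crosslinks fibrin, was at 22.1 ± 9.695 FPKM in control liver and listed at 0 in all 12 libraries of the other organs.

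The proteases upstream of fibrin were less abundant and also hepatic. In the contact and intrinsic group, the control liver means were 707 ± 146 FPKM for Kng1, the kininogen precursor of bradykinin, 188 ± 20.9 FPKM for F12, the contact factor, and 60.97 ± 18.1 FPKM for F9, the factor lacking in hemophilia B. F11, the factor that activates F9, was at 39.6 FPKM. None of these 4 had a control mean above 0.174 FPKM in the lung. Kng1 has the near-identical copy Kng2, and reads may be split between them.

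In the extrinsic and common group, prothrombin F2 was at 527 ± 81.6 FPKM in control liver, F10 at 113 ± 22.9 FPKM and F5, the cofactor of factor Xa, at 23.3 ± 5.202 FPKM. F7, the partner of tissue factor, was at 15.4 ± 6.39 FPKM in liver and 8.06 ± 0.828 FPKM in lung. F10, the protease that forms thrombin, was also present in lung, at 33.0 ± 24.7 FPKM, while F2 was at 0.289 FPKM there. Liver was above lung for F7 by a log2 of 0.79 ± 0.20 (limma, adjusted p = 0.00158) and for F10 by 2.002 ± 0.44 (limma, adjusted p = 5.48e-04).

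Among the anticoagulants, control liver held 441 ± 59.3 FPKM of Serpinc1 (antithrombin), 113 ± 13.96 FPKM of Proc (protein C) and 46.9 ± 48.3 FPKM of Serpind1 (heparin cofactor II). Pros1, protein S, the cofactor of protein C, was the exception of the group. It was at 43.95 ± 3.83 FPKM in lung, 27.7 ± 5.0 FPKM in liver and 9.85 ± 2.24 FPKM in intestine. Liver minus lung was -0.66 ± 0.17 (limma, adjusted p = 0.00204). Over all 13362 tested genes the median of that difference was -1.17, below the value of Pros1. The order of liver and lung for Pros1 therefore depends on the FPKM scale. In the fibrinolysis group, Cpb2, which trims plasmin binding sites from fibrin, was at 1368 ± 194 FPKM, Plg, the plasmin precursor, at 863 ± 91.1 FPKM and A2m, the broad protease inhibitor α2-macroglobulin, at 402 ± 35.7 FPKM in control liver. Serpinf2, the plasmin inhibitor, was at 348 FPKM. In intestine and lung all 4 stayed under 1 FPKM on average.

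Complement was spread more widely. C3, the shared core of the cascade, was at 4967 ± 499 FPKM in control liver, 519 ± 21.1 FPKM in lung and 54.4 ± 24.3 FPKM in intestine. Cfb, the protease of the alternative C3 convertase, was at 893 ± 146, 224 ± 56.2 and 99.2 ± 11.8 FPKM in the same order, and was the member with the highest mean in intestine. Cfp, properdin, the stabilizer of that convertase that leukocytes make, was at 78.7 ± 34.6 FPKM in lung against 11.3 ± 2.14 FPKM in liver and 8.91 ± 1.46 FPKM in intestine. Cfi, the protease that inactivates C3b, was at 204 ± 36.6 FPKM in liver, 6.26 ± 2.702 FPKM in intestine and 0.545 FPKM in lung.

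By FPKM the classical group was shared by liver and lung. Serping1, the C1 inhibitor, was at 609.6 ± 52.97 FPKM in liver, 356 ± 23.2 FPKM in lung and 74.2 ± 10.9 FPKM in intestine. C4b was at 170.3 ± 28.7 FPKM in liver and 57.6 ± 5.28 FPKM in lung. C1s1 and C1ra, the proteases of the C1 complex, were at 89.8 ± 18.97 and 80.1 ± 5.17 FPKM in liver, 67.6 ± 6.76 and 55.2 ± 8.33 FPKM in lung, and 23.96 ± 7.12 and 15.1 ± 3.09 FPKM in intestine. C2, which pairs with C4b in the C3 convertase, was at 28.4 ± 5.75 FPKM in lung, 25.7 ± 7.32 FPKM in liver and 15.3 ± 1.74 FPKM in intestine. All control livers were above all control lungs for C1ra and C1s1, and the log2 differences, liver minus lung, were 0.54 ± 0.26 (limma, adjusted p = 0.0629) and 0.39 ± 0.23 (limma, adjusted p = 0.132), short of the threshold. C2 overlapped between these organs, at -0.16 ± 0.20 (limma, adjusted p = 0.471). With median-of-ratios scaling all 40 members were called between liver and lung. The results for C1ra, C1s1 and C2 therefore depend on the scaling. C4b, C1ra and C1s1 have the copies C4a, C1rb and C1s2, and C2 and Cfb share exons with the annotated transcript Gm20547 on their own strand, so their reads may be split.

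The lectin group was hepatic. Mbl1 and Mbl2, the mannose-binding lectins, were at 386 ± 70.8 and 50.03 ± 23.6 FPKM in control liver, Masp2, the lectin pathway protease, at 97.7 ± 19.3 FPKM and Masp1 at 24.8 FPKM. Mbl1 reached 2.39 ± 0.392 FPKM in lung. Of the terminal group, whose proteins form the membrane attack complex, C8a, C8g and C9 were at 150.1 ± 73.6, 150.1 ± 25.2 and 127 ± 63.7 FPKM in control liver and C8b at 100.2 FPKM. C6 had the highest control mean of the group in lung, at 11.8 ± 1.997 FPKM there and 26.8 ± 10.4 FPKM in liver, and C8g was at 1.14 ± 0.385 FPKM in lung. The receptors ran the other way. C5ar1, the receptor of C5a on neutrophils and macrophages, was at 24.4 ± 11.3 FPKM in lung, 3.304 ± 0.731 FPKM in intestine and 0.773 ± 0.249 FPKM in liver. C3ar1 was at 4.99 ± 2.59, 1.82 ± 0.465 and 0.562 ± 0.0974 FPKM.

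In the liver, H2 was compared with control for 38 of the 40 genes, and C5ar1 and C3ar1 were under the minimum, at 0.356 to 1.29 FPKM. None was called by limma, where 0.0199% of all 10041 tested genes (2 genes) were. At an unadjusted p under 0.05 there were 10 members, 5 with a positive and 5 with a negative change, beside 21.04% of all genes. The change was positive for 27 members and negative for 11, with a median of 0.20 beside -0.02 for all genes. The control and H2 libraries did not overlap for 13 of the 38, with H2 above control for 7 and below for 6, beside 25.3% of all genes. In bulk tissue, fewer cells of a type and less RNA per cell cannot be told apart.

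The smallest adjusted p of a member in the liver was that of A2m. Its levels were 363, 433 and 409 FPKM in control livers 1, 2 and 3 and 165, 209 and 161 FPKM in the H2 livers. All 3 H2 livers lay below all 3 controls, and the change was -1.17 ± 0.15 (limma, adjusted p = 0.0990), a ratio on the fitted scale of 0.444. A2m stayed negative in all 18 alternatives, from -1.55 to -1.10, and control liver 2 held its highest value, so it differs in this from the genes below. A2m belongs to a family with several related genes in mouse. Pzp was at 2587, 2642 and 2127 FPKM in control livers 1, 2 and 3 and 2836, 2729 and 2098 FPKM in the H2 livers. Mug1 was at 325, 347 and 188 FPKM in control livers 1, 2 and 3 and 454, 922 and 451 FPKM in the H2 livers, with a change of 1.05 ± 0.35 (limma, adjusted p = 0.185). Whether reads shared within the family moved between these genes was not tested.

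The 3 fibrinogen chains varied together from library to library. Fga was at 19988, 12288 and 17588 FPKM in control livers 1, 2 and 3 and 11040, 11310 and 10649 FPKM in the H2 livers. Fgb was at 34435, 21485 and 29336 FPKM in control livers 1, 2 and 3 and 20310, 20060 and 18462 FPKM in the H2 livers. Fgg was at 25961, 17466 and 23994 FPKM in control livers 1, 2 and 3 and 15490, 17357 and 15194 FPKM in the H2 livers. Control livers 1 and 3 were above all H2 livers for each chain, control liver 2 lay between the other controls and the highest H2 liver, and the groups did not overlap. The changes were -0.57 ± 0.18 (limma, adjusted p = 0.182) for Fga, -0.51 ± 0.18 (limma, adjusted p = 0.193) for Fgb and -0.47 ± 0.17 (limma, adjusted p = 0.194) for Fgg. Without control liver 2 they were -0.77 ± 0.13 (adjusted p = 0.00796), -0.70 ± 0.14 (adjusted p = 0.0141) and -0.64 ± 0.13 (adjusted p = 0.0161) by limma. The chains kept near-constant proportions, with Fgg over Fgb between 0.754 and 0.865 and Fga over Fgb between 0.544 and 0.5995 in the 6 livers. Fibrinogen was 6.045, 6.276 and 5.82% of all FPKM in the H2 livers. Fgg shares exon bases with Gm30097 on the opposite strand, and the sources used here do not give the strand setting of the counting.

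The sequences before the starts of the fibrinogen genes are shown because the chains varied together, and those of Serpind1 and C8a because their values varied in the opposite direction. These genes were picked after their values were seen, and F13b, F5 and F7, which also had positive changes, are not shown. The sequences come from RefSeq on build GRCm38.p6, read 5′ to 3′ on the strand of the gene, and cover the 250 bases before the start site. For Fga the 173 bases outside the annotated GENCODE gene are printed. Capitals mark letters of 4 motifs, searched on both strands: GTTAAT (letters of the site of the hepatocyte factor HNF1), TTCNNNGAA (a STAT site), CTGGGAA (a type II interleukin-6 element) and TTGNNCAA (a C/EBP site). STAT and interleukin-6 letters can overlap each other.
Fga: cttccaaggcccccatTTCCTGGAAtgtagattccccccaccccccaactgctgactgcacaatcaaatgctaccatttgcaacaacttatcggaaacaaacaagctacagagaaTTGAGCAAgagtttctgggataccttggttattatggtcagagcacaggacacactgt
Fgb: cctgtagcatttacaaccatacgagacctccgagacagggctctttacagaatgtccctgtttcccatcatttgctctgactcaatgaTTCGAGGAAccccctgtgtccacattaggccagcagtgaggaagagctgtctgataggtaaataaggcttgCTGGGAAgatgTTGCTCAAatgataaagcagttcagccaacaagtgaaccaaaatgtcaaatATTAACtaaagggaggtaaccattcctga
Fgg: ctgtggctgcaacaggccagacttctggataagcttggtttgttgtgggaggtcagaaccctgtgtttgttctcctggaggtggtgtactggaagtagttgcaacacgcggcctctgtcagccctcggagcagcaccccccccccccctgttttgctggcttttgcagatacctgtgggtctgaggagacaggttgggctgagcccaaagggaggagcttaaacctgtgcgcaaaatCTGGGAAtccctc
Serpind1: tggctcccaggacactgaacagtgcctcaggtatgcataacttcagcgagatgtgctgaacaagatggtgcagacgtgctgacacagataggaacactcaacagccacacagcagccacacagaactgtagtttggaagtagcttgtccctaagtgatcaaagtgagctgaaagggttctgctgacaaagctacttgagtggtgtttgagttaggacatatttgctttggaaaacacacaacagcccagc
C8a: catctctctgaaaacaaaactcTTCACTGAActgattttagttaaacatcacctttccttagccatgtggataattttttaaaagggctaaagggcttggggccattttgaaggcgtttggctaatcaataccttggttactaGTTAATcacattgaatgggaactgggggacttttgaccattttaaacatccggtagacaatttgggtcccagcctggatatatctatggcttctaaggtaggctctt
The positions are chr3:83025903-83026075, plus strand for Fga, chr3:83049864-83050113, minus strand for Fgb, chr3:83007474-83007723, plus strand for Fgg, chr16:17331121-17331370, plus strand for Serpind1 and chr4:104876399-104876648, minus strand for C8a.

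Fgb held all 4 motifs, with the interleukin-6 element starting 91 bases and the C/EBP letters 80 bases before the start. Fga held a STAT match at 234 bases and a C/EBP match at 135 bases, and an HNF1 match at 43 bases before the RefSeq start, outside the letters printed. Fgg held the interleukin-6 element, at 13 bases. C8a held an HNF1 match at 107 bases and a STAT match at 228 bases, and in Serpind1 these letters are not in the window. Of the 30 members with an entry, 7 (23.3%) held the HNF1 letters, beside 7.49% of 27025 genes. The STAT letters were in 6 (20%) beside 8.13%, the interleukin-6 letters in 5 (16.7%) beside 10.4%, and the C/EBP letters in 6 (20%) beside 6.51%. A match is a run of letters and was not tested for binding.

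Cpb2, which slows fibrinolysis, was the fifth gene with a negative change at an unadjusted p under 0.05. It was at 1358, 1179 and 1566 FPKM in control livers 1, 2 and 3 and 1000.5, 1082 and 1023 FPKM in the H2 livers, without overlap, and its change was -0.39 ± 0.13 (limma, adjusted p = 0.190), which ran from -0.49 to -0.29 on leaving out 1 liver. Control liver 2 was again the control nearest to H2.

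The 5 positive changes were led in size by Serpind1, whose protein inhibits thrombin. It was at 14.4, 102 and 23.8 FPKM in control livers 1, 2 and 3 and 132, 113 and 136 FPKM in the H2 livers. Control livers 1 and 3 were several-fold below every H2 liver, and control liver 2 stood next to the H2 livers. The change was 1.91 ± 0.64 (limma, adjusted p = 0.185), and by limma it was 2.71 ± 0.21 (adjusted p = 8.82e-04) without control liver 2 and 1.33 ± 0.56 (adjusted p = 0.413) without control liver 1.

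C8a, the α chain of the membrane attack component C8, also had control livers 1 and 3 lowest. It was at 120.5, 234 and 95.9 FPKM in control livers 1, 2 and 3 and 244, 266 and 244 FPKM in the H2 livers. The change was 0.85 ± 0.31 (limma, adjusted p = 0.201). F13b was at 18.7, 33.05 and 14.6 FPKM in control livers 1, 2 and 3 and 38.7, 39.5 and 43.6 FPKM in the H2 livers, with a change of 0.93 ± 0.27 (limma, adjusted p = 0.169). For both, H2 was above all controls, and control liver 2 was the nearest control.

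F7, which starts the extrinsic route, was at 14.8, 22.1 and 9.41 FPKM in control livers 1, 2 and 3 and 23.6, 25.1 and 24.03 FPKM in the H2 livers. Its change was 0.69 ± 0.27 (limma, adjusted p = 0.217), and the groups did not overlap. Without control liver 3 it was 0.40 ± 0.19 (adjusted p = 0.480) by limma. F5 was at 26.4, 26.3 and 17.3 FPKM in control livers 1, 2 and 3 and 35.1, 48.5 and 29.5 FPKM in the H2 livers. Control livers 1 and 2 were alike for F5, control liver 3 was lowest, and H2 was above all of them, with a change of 0.67 ± 0.23 (limma, adjusted p = 0.193).

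The number of called genes depended on control liver 2. Leaving out each of the 6 livers in turn gave 0 to 10 called members, and the 10 came without control liver 2, when 2834 of 10057 genes were called. The members' share, 26.3%, lay beside 28.2% for all genes, so it was near the background. The 10 were A2m, Fga, Fgb, Fgg, Cpb2, Serpind1, C8a, F13b, F7 and F9. In that fit C8a had 1.22 ± 0.13 (adjusted p = 0.00227), F13b 1.25 ± 0.14 (adjusted p = 0.00227), F7 0.98 ± 0.18 (adjusted p = 0.0108) and Cpb2 -0.49 ± 0.12 (adjusted p = 0.0265) by limma, and A2m -1.12 ± 0.15 (adjusted p = 0.00419). Without control liver 3, C8a had 0.58 ± 0.28 (adjusted p = 0.488) and F13b 0.68 ± 0.24 (adjusted p = 0.431) by limma. That library was singled out after its values were seen, and it carries the same label as the other controls.

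**Figure D2:**
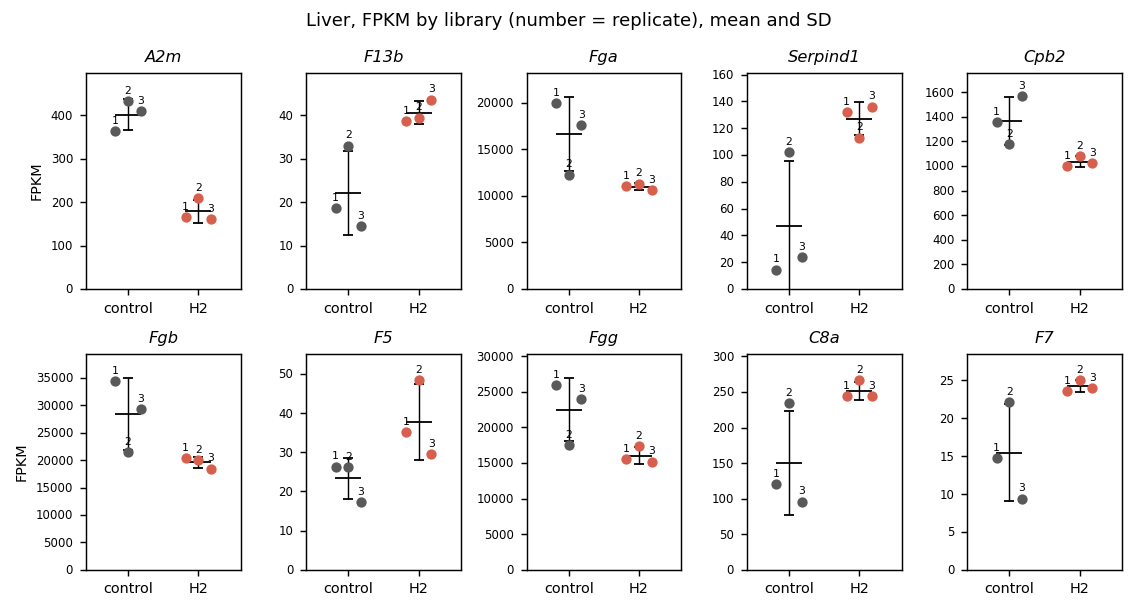
FPKM of 10 genes in the liver by library, with replicate numbers beside the points, the mean (dash) and the SD (bar), n = 3 per group. Axes start at 0 and differ between panels; control liver 2 sits beside the H2 points for Serpind1, C8a, F13b and F7 and among the controls for A2m, and the SD bar of Serpind1 in the controls is cut off at 0.

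Like the genes above, the remaining hepatic members did not pass the test. In the contact group, F11, Kng1 and F9 had positive changes of 0.52 ± 0.34, 0.30 ± 0.20 and 0.47 ± 0.21, and F12 had -0.13 ± 0.14. F10 and F2 were at 0.09 ± 0.19 and 0.09 ± 0.15. The anticoagulants Proc, Serpinc1 and Pros1 had 0.27 ± 0.13, 0.20 ± 0.13 and -0.20 ± 0.16. Plg and Serpinf2 were at 0.08 ± 0.13 and 0.06 ± 0.10, so that within the fibrinolysis group the 2 genes with negative changes were A2m and Cpb2.

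In complement, all 5 terminal genes and all 4 lectin genes had positive changes in the liver, with group medians of 0.40 and 0.15, and C8a was the one at an unadjusted p under 0.05. C6, C9, C8b and C8g had 0.52 ± 0.31, 0.40 ± 0.38, 0.28 ± 0.21 and 0.21 ± 0.14. The lectin genes ran from 0.02 for Masp1 to 0.22 for Mbl2. C3 was at 5007, 5445 and 4448 FPKM in control livers 1, 2 and 3 and 5034, 5150.4 and 3922 FPKM in the H2 livers, a change of -0.08 ± 0.15 (limma, adjusted p = 0.760). Cfb, Cfp and Cfi had -0.09 ± 0.15, 0.20 ± 0.17 and 0.31 ± 0.16. C4a, the copy of C4b, was at most 3.61 FPKM in the livers. The classical group ran from -0.16 for C1ra to 0.28 for C4b.

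**Figure D3:**
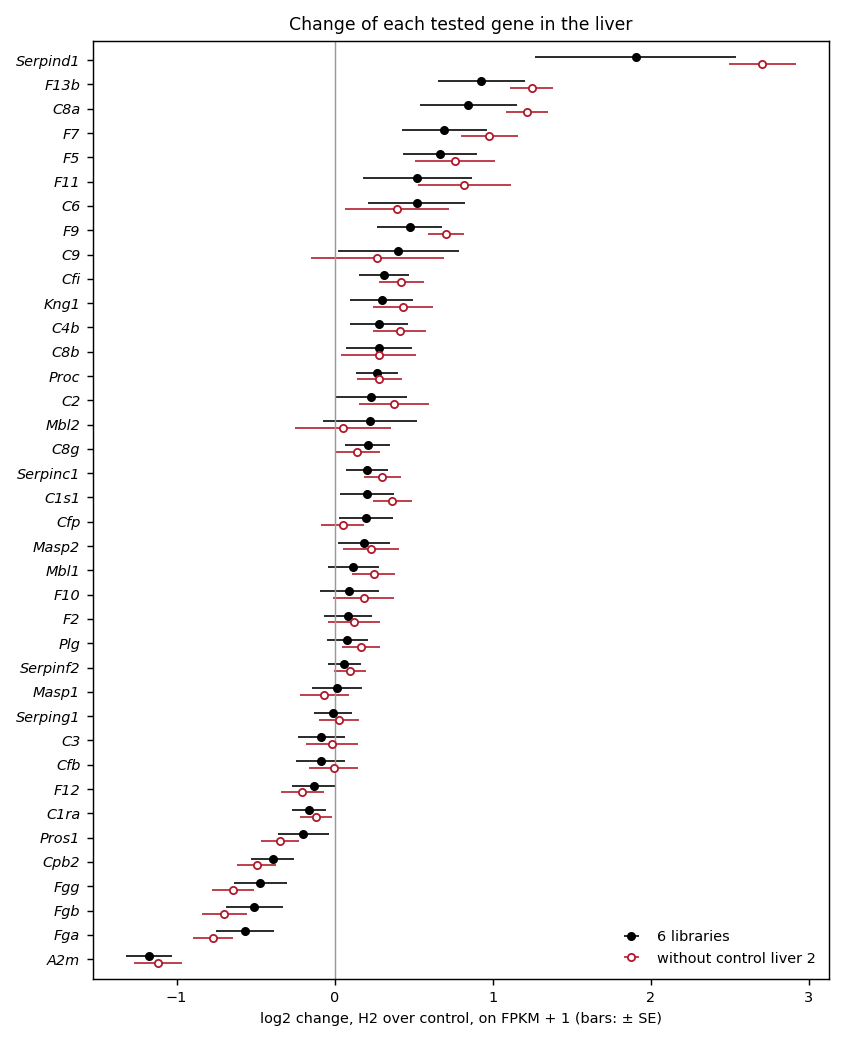
Change of the 38 tested genes in the liver, as log2 of H2 over control on FPKM + 1 with SE bars. Black points use all 6 libraries and red open points leave out control liver 2; A2m and the fibrinogen chains lie left of 0 and Serpind1 farthest right under both.

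Hepatocyte and Kupffer cell markers were measured beside these genes. The summed FPKM of 16 hepatocyte markers was 37371 to 49102 in control and 39444 to 44321 in H2 livers. Of the 16, 6 had a positive and 1 a negative change at an unadjusted p under 0.05, beside 21.04% of all genes. Of 6 Kupffer cell markers, 5 had positive changes at that level, and their summed FPKM was 129.98 to 172.24 in control and 163.85 to 233.17 in H2 livers. Marco, the marker with a negative change (-0.38 ± 0.26), was the largest item of that sum in every liver, while Cd5l was at 8.23, 19.9 and 12.3 FPKM in control livers 1, 2 and 3 and 61.5, 57.5 and 41.5 FPKM in the H2 livers. Of 7 endothelial markers 4, and of 7 monocyte and macrophage markers 3, had positive changes at an unadjusted p under 0.05 and 0 negative ones. With the livers set to an equal hepatocyte marker level, the median member change was -0.18 in place of 0.20, and 5 members (13.2%) were called, A2m, Cpb2, Fga, Fgb and Fgg, all negative, beside 16.5% of all genes. The part of these cells in the changes was not otherwise tested.

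Other genes of the pathways in the liver were taken from lists. Of 29 other complement genes, 22 were tested and 0 were called. There were 14 with a positive and 0 with a negative change at an unadjusted p under 0.05, beside 21.04% of all genes. The median change of the 22 was 0.63. Vsig4, a complement receptor of Kupffer cells, was at 2.13, 6.91 and 2.85 FPKM in control livers 1, 2 and 3 and 18.7, 24.9 and 15.97 FPKM in the H2 livers, a change of 2.17 ± 0.35 (limma, adjusted p = 0.128). C1qc, a chain of C1q, was at 21.7, 26.01 and 23.6 FPKM in control livers 1, 2 and 3 and 43.7, 40.2 and 37.3 FPKM in the H2 livers, a change of 0.74 ± 0.12 (limma, adjusted p = 0.129). Colec11, a lectin pathway collectin, had 1.17 ± 0.19 (limma, adjusted p = 0.128). The H2 livers were above every control for all 3 genes, and 1 of them, Vsig4, is also among the Kupffer cell markers. That marker list held no C1q chain, and the part of Kupffer cells in the 3 values was not tested.

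Of 24 other coagulation and fibrinolysis genes, 19 were tested in the liver and 0 were called. There were 6 positive and 4 negative changes at an unadjusted p under 0.05, beside 21.04% of all genes. Klkb1, plasma prekallikrein, was at 1.95, 8.802 and 1.19 FPKM in control livers 1, 2 and 3 and 16.2, 17.1 and 15.8 FPKM in the H2 livers, a change of 2.12 ± 0.51 (limma, adjusted p = 0.167). Control liver 2 was again between the other controls and H2. Procr, the endothelial protein C receptor, had -1.18 ± 0.26 (limma, adjusted p = 0.161). Vkorc1, which recycles vitamin K for the carboxylation of clotting factors, had 0.88 ± 0.25 (limma, adjusted p = 0.168).

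Interleukin-6 family signalling genes and other acute-phase proteins were counted as well. Of 21 signalling and hepatocyte transcription factor genes, 0 were called in the liver. The change was positive for 11 and negative for 10, with a median of 0.01. At an unadjusted p under 0.05, 2 had positive and 3 negative changes, beside 21.04% of all genes. The 3 were Osmr, an interleukin-6 family receptor, at -0.77 ± 0.11 (limma, adjusted p = 0.126), Stat3 at -0.55 ± 0.17 and its feedback inhibitor Socs3 at -0.50 ± 0.17. Of 14 acute-phase plasma proteins outside the cascades, 8 had positive and 6 negative changes, with a median of 0.04, and Serpina3n was the one at an unadjusted p under 0.05, at -0.88 ± 0.25 (limma, adjusted p = 0.168).

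In the lung, 21 members were tested and 0 were called by limma, where 0.00745% of all 13424 genes (1 gene) were. At an unadjusted p under 0.05 there were 4 members, 1 with a positive and 3 with a negative change, beside 23.06% of all genes. The change was negative for 14 and positive for 7, with a median of -0.20 beside 0.00 for all genes. The groups did not overlap for 5 members, with H2 lower for 4, beside 30.0% of all genes. The other 19 members were under the minimum, and F13b, Mbl2 and C8b were listed at 0 in all 6 lungs. Fga, Fgb and Fgg passed the minimum through the controls alone, with H2 means under 1 FPKM, so that their negative direction was favoured by the filter.

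The alternative pathway genes Cfb and Cfp were lower in every H2 lung than in any control lung. Cfb was at 288, 182 and 202 FPKM in control lungs 1, 2 and 3 and 145, 117 and 135 FPKM in the H2 lungs, a change of -0.74 ± 0.19 (limma, adjusted p = 0.172). Cfp was at 118, 61.8 and 55.8 FPKM in control lungs 1, 2 and 3 and 46.1, 35.8 and 40.9 FPKM in the H2 lungs, a change of -0.85 ± 0.28 (limma, adjusted p = 0.179). Control lung 1 held the highest value of both. Without it the changes were -0.54 ± 0.13 (adjusted p = 0.263) for Cfb and -0.52 ± 0.14 (adjusted p = 0.263) for Cfp by limma. C3, the protein on which both act, was at 511, 543 and 504 FPKM in control lungs 1, 2 and 3 and 543, 471 and 475 FPKM in the H2 lungs, a change of -0.07 ± 0.10 (limma, adjusted p = 0.690), and its groups overlapped.

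F10 varied most among the clotting proteases of the lung. It was at 60.1, 27.2 and 11.6 FPKM in control lungs 1, 2 and 3 and 7.39, 6.64 and 7.38 FPKM in the H2 lungs. The 3 H2 lungs were nearly alike and below all controls, while the controls spanned a wide range, and the change was -1.78 ± 0.51 (limma, adjusted p = 0.172). Without control lung 1 the change was -1.22 ± 0.32 (adjusted p = 0.263) by limma. F7 (chr8:13026034-13035809) and F10 (chr8:13037308-13056676) are neighbours on the plus strand in mm10. F7 was at 8.95, 7.31 and 7.93 FPKM in control lungs 1, 2 and 3 and 8.39, 7.57 and 9.402 FPKM in the H2 lungs, a change of 0.06 ± 0.12 (limma, adjusted p = 0.771), with overlapping groups. F5 had 0.13 ± 0.15.

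Serpind1 was the lung member with a positive change at an unadjusted p under 0.05. It was at 0.793, 1.898 and 3.15 FPKM in control lungs 1, 2 and 3 and 4.401, 3.46 and 4.36 FPKM in the H2 lungs, and the groups did not overlap. The change was 0.86 ± 0.30 (limma, adjusted p = 0.184), in an organ where the gene stood under 5 FPKM, and without control lung 1 it was 0.54 ± 0.19 (adjusted p = 0.293) by limma. Pros1, the other anticoagulant tested there, had 0.02 ± 0.10.

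Fibrinogen in the lung came mostly from 2 libraries. Fgg was at 18.9, 12.5 and 0.169 FPKM in control lungs 1, 2 and 3 and 1.495, 0.211 and 0.268 FPKM in the H2 lungs. Fga was at 2.94, 6.75 and 0.071 FPKM in control lungs 1, 2 and 3 and 0.943, 0.092 and 0.097 FPKM in the H2 lungs. Fgb was at 1.34, 9.48 and 0 FPKM in control lungs 1, 2 and 3 and 1.15, 0 and 0 FPKM in the H2 lungs. Control lungs 1 and 2 held the highest values of each chain, H2 lung 1 came next, and control lung 3 was near H2 lungs 2 and 3. The changes were -2.12 ± 1.02 (limma, adjusted p = 0.255) for Fgg, -1.27 ± 0.69 (limma, adjusted p = 0.290) for Fga and -1.17 ± 0.82 for Fgb. Without control lung 1 the Fgg change was -1.34 ± 0.98 (adjusted p = 0.521) by limma. In control lung 1, Fgg over Fgb was 14.09, where the livers were between 0.754 and 0.865, and Alb was at 0.998 FPKM. In control lung 2 the ratio was 1.32 and Alb was at 5.95 FPKM, its highest value in the lung. In H2 lung 1 the ratio was 1.298 and Alb was at 1.357 FPKM. Most of these values are low, and their origin was not tested.

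**Figure D4:**
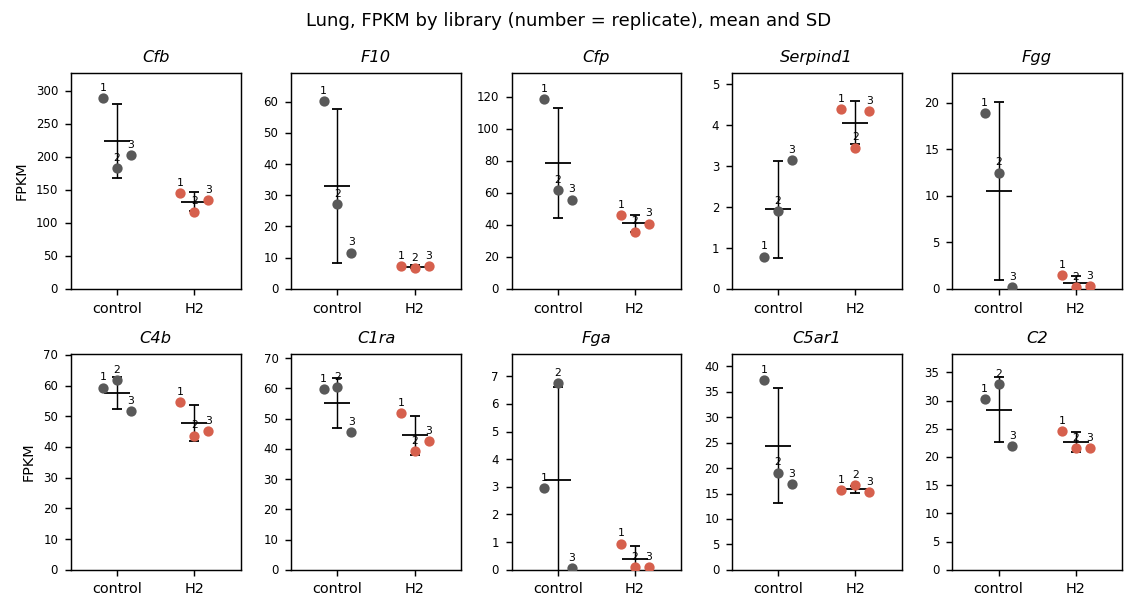
FPKM of 10 genes in the lung by library, with replicate numbers beside the points, the mean (dash) and the SD (bar), n = 3 per group. Axes start at 0 and differ between panels; control lung 1 is the highest library for F10, Cfp, Cfb, C5ar1 and Fgg, and control lung 3 is the control nearest to H2 for F10, Cfp, Serpind1 and Fgg, and the SD bars of Fga in both groups and of Fgg in H2 are cut off at 0.

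No classical complement gene of the lung passed the test. C4b was at 59.4, 61.7 and 51.6 FPKM in control lungs 1, 2 and 3 and 54.7, 43.7 and 45.2 FPKM in the H2 lungs, a change of -0.26 ± 0.13 (limma, adjusted p = 0.257). C1ra and C2 had -0.30 ± 0.16 and -0.30 ± 0.16, and C1s1 and Serping1 had 0.16 ± 0.13 and 0.09 ± 0.12. Mbl1 was at -0.19 ± 0.14, C6 at 0.19 ± 0.13 and C8g at -0.02 ± 0.23. The receptor C5ar1 was at 37.4, 19.1 and 16.9 FPKM in control lungs 1, 2 and 3 and 15.6, 16.6 and 15.4 FPKM in the H2 lungs, a change of -0.51 ± 0.28 (limma, adjusted p = 0.293). Control lung 1 was again the highest, and without it the C5ar1 change was -0.17 ± 0.11 (adjusted p = 0.474) by limma. C3ar1 had -0.20 ± 0.31.

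Leaving out each lung in turn gave 0 to 7 called members. The 7 came without control lung 3, when 3295 of 13424 genes were called, 33.3% of the members beside 24.5% of all genes, and they were C2, Cfb, Cfp, F10, Fga, Fgg and Serpind1. In that fit F10 had -2.35 ± 0.30 (adjusted p = 0.00894), Fgg -3.39 ± 0.35 (adjusted p = 0.00659), Cfb -0.80 ± 0.21 (adjusted p = 0.0401), Cfp -1.05 ± 0.27 (adjusted p = 0.0384) and Serpind1 1.15 ± 0.23 (adjusted p = 0.0203) by limma. Fga and Fgg passed the minimum through the controls alone, so their negative direction was favoured by the filter. Control lung 3, which held the lowest control value of both, was singled out after its values were seen. Myeloid markers were measured beside these genes. Of 8 monocyte and macrophage markers, 3 had negative and 0 positive changes at an unadjusted p under 0.05, beside 23.06% of all genes. The 3 were Ly6c2 at -0.83 ± 0.21, Fcgr1 at -1.22 ± 0.32 and Ccr2 at -0.42 ± 0.16, and these and Cd68 (-0.48 ± 0.21) were lower in every H2 lung than in any control. The summed level, 4111 to 6164 FPKM in control and 5440 to 5898 FPKM in H2 lungs, was mostly Lyz2, with 0.32 ± 0.19. Of 6 neutrophil markers found, 3 had positive changes at an unadjusted p under 0.05, with 18269 to 28592 FPKM in control and 18793 to 31827 FPKM in H2 lungs. The part of these cells in the lung values was not tested.

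Other acute-phase proteins had lower means in the H2 lungs. All 12 tested of 14 had negative changes, with a median of -1.26, and 0 were called. Of the 12, 9 were at an unadjusted p under 0.05, beside 23.06% of all genes. Hpx, hemopexin, was at 24.8, 15.2 and 18.4 FPKM in control lungs 1, 2 and 3 and 4.89, 4.11 and 3.14 FPKM in the H2 lungs, a change of -2.01 ± 0.21 (limma, adjusted p = 0.167). Orm1 was at 164, 49.5 and 119 FPKM in control lungs 1, 2 and 3 and 22.5, 26.3 and 16.3 FPKM in the H2 lungs, a change of -2.16 ± 0.43 (limma, adjusted p = 0.172). Both had no overlap between groups. Among the signalling genes, Cebpb, Cebpd and Osmr had -0.93 ± 0.21, -1.01 ± 0.26 and -1.28 ± 0.38, with 5 of 15 negative and 1 positive at an unadjusted p under 0.05. Of 17 other coagulation genes tested, 7 had negative and 1 a positive change at that level. The positive one was Vwf, the platelet adhesion factor of endothelium, at 22.4, 29.9 and 38.6 FPKM in control lungs 1, 2 and 3 and 47.6, 54.8 and 71.7 FPKM in the H2 lungs, a change of 0.93 ± 0.23 (limma, adjusted p = 0.172). Of 7 endothelial markers in the lung, 4 had positive and 1 a negative change at that level, with a median of 0.72. Their summed level was 879.64 to 1238 FPKM in control and 848.86 to 1225 FPKM in H2 lungs. Cldn5, the marker with a negative change, was the largest item of the control mean, at 547 ± 250 FPKM in control and 260 ± 39.8 FPKM in H2 lungs. The other 6 markers had positive changes. The part of endothelial cells in the Vwf value was not tested. Of 21 other complement genes, 2 had positive and 3 negative changes at that level. Hc, which encodes C5, was at 57.6, 47.6 and 100.5 FPKM in control lungs 1, 2 and 3 and 108, 106 and 129 FPKM in the H2 lungs, a change of 0.79 ± 0.27 (limma, adjusted p = 0.182).

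In the intestine, 16 members were tested and 0 were called by limma, where 0.00840% of all 11910 genes (1 gene) were. At an unadjusted p under 0.05 there were 4 members, C6 with a positive and C5ar1, F10 and Fga with negative changes, beside 12.47% of all genes. F10 and Fga passed the minimum through the controls alone, with H2 means under 1 FPKM, so that their negative direction was favoured by the filter. The change was negative for 11 and positive for 5, with a median of -0.12 beside 0.02 for all genes. The groups did not overlap for 4 members, with H2 higher for 3, beside 19.3% of all genes. H2 intestine 2 had the highest FPKM total of all libraries, 1142966, where the other intestines had 712858 to 850609, and the lowest values of several members.

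The C5a receptor gene C5ar1 was at 4.01, 3.35 and 2.55 FPKM in control intestines 1, 2 and 3 and 2.54, 1.09 and 1.55 FPKM in the H2 intestines, without overlap, a change of -0.68 ± 0.24 (limma, adjusted p = 0.370). C6 was at 1.05, 1.55 and 0.624 FPKM in control intestines 1, 2 and 3 and 2.35, 1.74 and 1.96 FPKM in the H2 intestines, a change of 0.56 ± 0.22 (limma, adjusted p = 0.380). Cfi was at 3.18, 8.23 and 7.38 FPKM in control intestines 1, 2 and 3 and 11.5, 9.63 and 8.88 FPKM in the H2 intestines, a change of 0.67 ± 0.30 (limma, adjusted p = 0.411). For C6 and Cfi the H2 intestines were above all controls. The Cfi change was 0.32 ± 0.19 (adjusted p = 0.769) without control intestine 1 by limma.

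Cfb, the most abundant member in the intestine, was at 85.7, 107 and 104 FPKM in control intestines 1, 2 and 3 and 116, 131 and 133 FPKM in the H2 intestines. Every H2 intestine was above every control, and the change was 0.36 ± 0.18 (limma, adjusted p = 0.432). All 4 enterocyte markers tested also had positive changes, 0 of them at an unadjusted p under 0.05, with a median of 0.84 and a summed level of 1180.1 to 3518 FPKM in control and 2609.5 to 7603 FPKM in H2 intestines. Their part in the Cfb, C6 and Cfi values was not tested. F10 was at 4.19, 0.577 and 1.55 FPKM in control intestines 1, 2 and 3 and 0.597, 0.311 and 0.311 FPKM in the H2 intestines, a change of -0.98 ± 0.40 (limma, adjusted p = 0.396). H2 intestine 1 lay above control intestine 2, and without control intestine 1 the mean of F10 was under the minimum. Fga was at 2.68, 1.299 and 1.96 FPKM in control intestines 1, 2 and 3 and 1.84, 0.378 and 0.0353 FPKM in the H2 intestines, a change of -0.88 ± 0.38 (limma, adjusted p = 0.401), and H2 intestine 1 overlapped the controls.

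C3 showed how far 1 library could move an intestinal value. It was at 41.3, 82.5 and 39.5 FPKM in control intestines 1, 2 and 3 and 35.2, 13.1 and 108 FPKM in the H2 intestines, a change of -0.46 ± 0.68 (limma, adjusted p = 0.776). Without H2 intestine 2 the change was 0.26 ± 0.53 (adjusted p = 0.906) by limma, of the opposite sign. C1ra, Serping1 and C4b, which had -0.58 ± 0.35, -0.48 ± 0.37 and -0.49 ± 0.39, were also lowest in H2 intestine 2, and without it they were -0.19 ± 0.25 (adjusted p = 0.849), -0.09 ± 0.28 (adjusted p = 0.935) and -0.14 ± 0.36 (adjusted p = 0.925) by limma. C1s1, C2, Cfp, Pros1, Proc and C3ar1 ran from -0.14 for C3ar1 to 0.17 for Proc. The remaining 24 members were under the minimum, and F13b and Mbl1 were listed at 0 in all 6 intestines.

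Pathway genes outside the members were counted in the intestine too. Of 18 other coagulation genes, 0 were called. There were 5 with a negative and 1 with a positive change at an unadjusted p under 0.05, beside 12.47% of all genes. F3, tissue factor, which starts coagulation, was at 23.3, 14.3 and 22.8 FPKM in control intestines 1, 2 and 3 and 9.895, 4.89 and 6.48 FPKM in the H2 intestines, a change of -1.40 ± 0.28 (limma, adjusted p = 0.327). The H2 intestines were below all controls for this gene. Cfd, the adipocyte-made protease that activates Cfb, was at 131, 57.3 and 76.98 FPKM in control intestines 1, 2 and 3 and 0.302, 0.551 and 49.8 FPKM in the H2 intestines, a change of -4.17 ± 1.27 (limma, adjusted p = 0.353). Adipoq, an adipocyte marker, had a change of -2.91 ± 0.86 (limma, adjusted p = 0.353), and 2 of 3 adipocyte markers tested were negative at an unadjusted p under 0.05. The part of fat in these values was not tested. Of 9 acute-phase plasma proteins tested, 8 had negative changes, 3 of them at an unadjusted p under 0.05, and Orm1 had -2.04 ± 0.33 (limma, adjusted p = 0.281). Of 20 signalling genes, 6 were negative and 0 positive at that level, with Cebpb at -0.92 ± 0.27 (limma, adjusted p = 0.353).

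Whether the change with H2 differed between organs was tested in a fit of all 18 libraries. Between liver and intestine 1 member was called, beside 0.217% of 13362 genes. Between liver and lung 1 was called, beside 0.239%, and between lung and intestine 1, beside 1.24%. The pairs share the change of one organ, so they are not independent.

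The member called in both differences that involve the liver was A2m, which passed the minimum of that fit through the liver alone. It was at most 0.135 FPKM in the intestine and 0.586 FPKM in the lung, so the differences, -1.18 ± 0.18 (limma, adjusted p = 0.0104) for liver minus intestine and -0.93 ± 0.18 (limma, adjusted p = 0.0425) for liver minus lung, restate its hepatic change against the pooled spread of 18 libraries. They say nothing of a response in the other organs, where there was hardly any level to change, and within the liver A2m was not called. With a pseudocount of 0.1 neither difference was called, at -1.19 ± 0.45 and -0.44 ± 0.45. The difference from the lung was called in 10 of 28 alternatives, and it was lost on leaving out control liver 1 or 3, any H2 liver, control lung 1 or 2, any H2 lung, or 5 of the 6 intestines, where it ran from -1.05 to -0.86.

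Cfb was the member called between lung and intestine, with -1.09 ± 0.24 (limma, adjusted p = 0.0450). All H2 lungs were below all control lungs and all H2 intestines above all control intestines. It was called in 12 of 28 alternatives. It was not called with a pseudocount of 0.1, a minimum of 5 FPKM, quantile normalization, median-of-ratios scaling or the replicate number as a block, nor without control intestine 1 or 3, H2 intestine 2, control lung 1, any H2 lung, control liver 3 or any H2 liver. Its value ran from -1.22 to -0.76 over all 28. Liver minus intestine for Cfb was -0.44 ± 0.24 (limma, adjusted p = 0.384) and liver minus lung 0.65 ± 0.24 (limma, adjusted p = 0.282). Serpind1, with positive changes in liver and lung, had a liver minus lung difference of 1.05 ± 0.66 (limma, adjusted p = 0.584). F10 had 1.87 ± 0.63 (limma, adjusted p = 0.227) for liver minus lung.

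**Figure D5:**
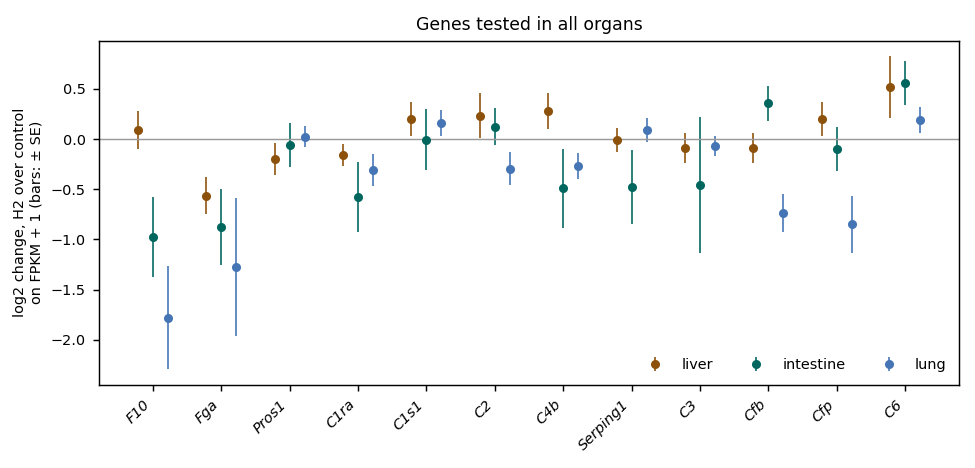
Change with H2 of the 12 genes tested in all 3 organs, as log2 of H2 over control on FPKM + 1 with SE bars and colours for the organs. Cfb is above 0 in the intestine and below 0 in the lung. F10 is near 0 in the liver and below 0 in the other organs, and Fga is below 0 in all of them. Fga in lung and intestine and F10 in intestine passed the minimum through the controls alone. Their negative direction there was favoured by the filter.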

How the data were processed

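The deposited tables hold FPKM made by the authors, 1 column per library. The submitters' processing notes name build mm10 and the tools Cufflinks 2.2.1, TopHat2 2.0.13, SAMtools 0.1.19 and Bowtie2 2.2.3. Per the labels' protocols, libraries came from miRNeasy Micro RNA and the TruSeq stranded mRNA kit. Annotation, options and strand setting are not given in the sources used here. FPKM is a share of the library, so a few abundant genes can lower the rest, and the files hold no counts. Groups follow the sample titles. 1 column of per-sample values, equal to control lung 3 (0 values differ), was not used.

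Log2(FPKM + 1) was fitted with limma 3.58.1 (empirical Bayes trend, two-sided, Benjamini-Hochberg) in R 4.3.3, over genes with a mean of at least 1 FPKM, per organ on 6 libraries and, between organs, on all 18 with 1 mean per group. An exact permutation test of 3 against 3 cannot go below 0.1. Fits were tested on simulated data with independent noise for each gene. These data held no shift shared by the genes of a library, so they do not bear on the dependence on single libraries. Members and lists were chosen with earlier results of these data known. By rule, values are given for the 10 members with the smallest p per organ, the most abundant of each role, members above 10 FPKM outside the liver, and up to 3 genes per list. Pzp, the markers, the genes with printed sequences, and members beyond 10 in the text were added after their values were seen. Positions are from GENCODE vM21. Values of a gene among the other coagulation genes are not reported here.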

Additional observations from a re-analysis of the deposited data

Results flagged for a closer look

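In 3 cases limma's test of the difference between organs in the change with H2 passed the threshold in the fit of 18 libraries. Both A2m cases restate its hepatic change, since it was close to 0 in the other organs, and they do not show that the organs respond differently. For A2m, liver minus intestine was -1.18 ± 0.18 (adjusted p = 0.0104), and all 3 H2 livers were below all control livers. For A2m, liver minus lung was -0.93 ± 0.18 (adjusted p = 0.0425), with the lung at most 0.586 FPKM. For Cfb, lung minus intestine was -1.09 ± 0.24 (adjusted p = 0.0450), with H2 lower in 3 of 3 lungs and higher in 3 of 3 intestines, where all 4 enterocyte markers tested also had positive changes.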

How the results depend on the processing

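Of 512 alternative values of the 30 named member changes within organs, 467 kept their direction and side of the threshold, 44 passed the threshold and 1 changed sign, C3 in the intestine (-1.21 to 0.26 on leaving out libraries, 0.26 without H2 intestine 2). The 0 called members became 10 (26.3%) in the liver and 12 (57.1%) in the lung with array weights, whose fit did not fully converge, beside 25.1% and 53.2% of all genes. With all 18 libraries in 1 fit they became 3 of 40 (7.5%) and 2 of 40 (5%), beside 2.09% and 4%, and at an equal hepatocyte marker level 5 (13.2%) in the liver, beside 16.5%. Leaving out 1 library gave 0 to 10 members for the liver, the 10 without control liver 2 (26.3% beside 28.2%), and 0 to 7 for the lung, the 7 without control lung 3 (33.3% beside 24.5%). The 7 include Fga and Fgg, which passed the minimum through the controls alone. In the intestine all 17 alternatives gave 0.

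Called differences between organs, 1 each, became 0 for all 3 pairs with a pseudocount of 0.1, and 6 (liver and intestine), 17 (liver and lung) and 6 (lung and intestine) with array weights, 15.0, 42.5 and 15.0% of the members beside 10.4, 24.1 and 20.4% of all genes. With a minimum of 5 FPKM they were 0 for liver and lung and for lung and intestine, and with quantile normalization or median-of-ratios scaling 0 for lung and intestine. Leaving out 1 library gave 1 to 6, 0 to 6 (the 6 without control liver 2 for both) and 0 to 2 (the 2 without control lung 3). Control level counts were 38 to 40, 36 to 40 and 18 to 29. The 40 for liver against lung came with median-of-ratios scaling, which added C1ra, C1s1 and C2.

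The median change turned to -0.18 in the liver at an equal hepatocyte marker level. In the intestine it turned to 0.0127 with array weights and 0.00 with 18 libraries, and ran from -0.29 to 0.0757 on leaving out libraries. The causes were not tested. With a replicate block, 0 members were called in each organ, 1 for liver and intestine, and 0 for liver and lung and for lung and intestine. The numbers share no stated origin: correlations of same-numbered deviations ran from -0.11 to 0.33, and 2 of 6 libraries per organ correlated best with their own number. Files without counts give no interval for single low values.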
